A study of Mus musculus with 16 samples.

Results

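The 10 genes described here encode the nuclear receptors and coactivators that set fuel use and mitochondrial gene expression in heart muscle. They are the peroxisome proliferator-activated receptors (PPARs) Ppara, Ppard and Pparg, the retinoid X receptors (RXRs) Rxra, Rxrb and Rxrg, the estrogen-related receptors (ERRs) Esrra and Esrrg, and the coactivators Ppargc1a and Ppargc1b, which encode PGC-1 alpha and PGC-1 beta. They were chosen by symbol, and all 10 were found among the 54108 genes with a symbol in the count table and passed the filter on low counts together with 16051 genes in all. The counts come from mRNA libraries of heart ventricles of 8-week-old mice. All mice carried floxed alleles of Rbpms (Rbpms fl/fl), which encodes an RNA-binding protein. The 4 cardiac knockout (cKO) libraries came from mice that also carried Myh6-Cre, a Cre recombinase under a promoter active in heart muscle cells, and the 4 control libraries came from mice without Cre. Each genotype had 3 male libraries and 1 female library, replicate 3 in both. No group with Cre and unfloxed Rbpms was among these libraries, so an effect of Cre and the loss of Rbpms cannot be told apart. The other 8 libraries of the series, from newborn ventricles, were not analysed here.

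PPARs bind DNA as pairs with an RXR and are switched on by fatty acids and their derivatives, and in heart muscle PPAR alpha is known above all for genes of fatty acid uptake and oxidation. ERRs have no firmly established natural ligand and bind genes of the respiratory chain and the citric acid cycle. PGC-1 coactivators do not bind DNA themselves but dock onto PPARs and ERRs and recruit the machinery of transcription. Their amount can thus affect how strongly these receptors act. RXRs are shared partners, which also pair with the retinoic acid, thyroid hormone and vitamin D receptors.

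In cKO ventricles 4 of the 10 genes fell and 0 rose (edgeR quasi-likelihood test of genotype, Benjamini-Hochberg adjustment across the 16051 genes, adjusted p below 0.05). These were Rxrg, Ppara, Ppargc1a and Ppargc1b, and the control and cKO libraries did not overlap for any of them. Of all tested genes 9.64% fell, 9.64% rose, and 11.8% were lower in every cKO library than in every control library (19.3% were called and 23.5% did not overlap in either direction). The median log2 fold change of the 10 genes was -0.18, against 0.01 over all tested genes. Rxrg had the second smallest p of all tested genes (rank 2), and its fold change lay at percentile 0.935 from the bottom. The 6 genes that did not pass had log2 fold changes between -0.20 and 0.13. Reads of these genes numbered 185 to 5776 per gene and library.

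**Figure D1:**
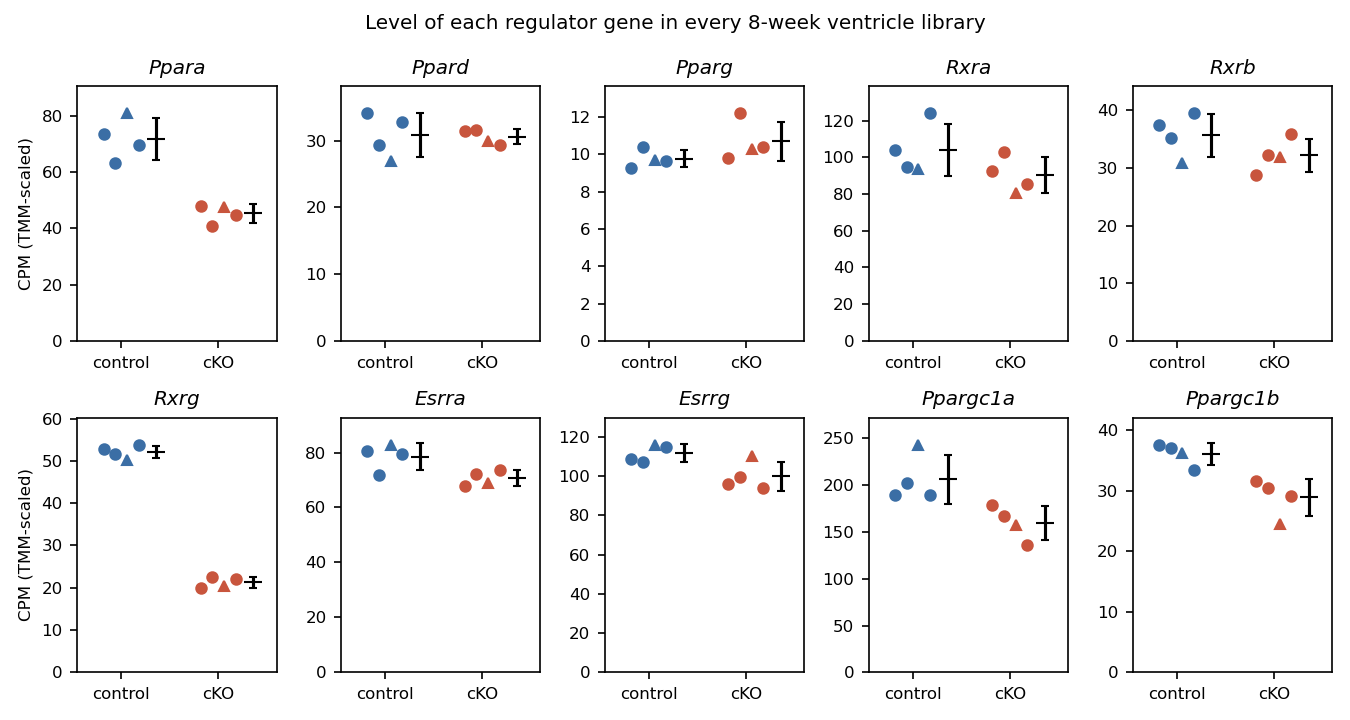
Level of each of the 10 genes in CPM (counts scaled to a common library size by TMM; y axis from 0) in the 4 control (blue) and 4 cKO (red) libraries; circles are males, triangles females, and the black bar is the mean with its SD. The cKO libraries of Rxrg sit between 20 and 22.6 CPM, all below the lowest control library at 50.3.

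Total counts were 20190334 to 24540433 per library, so a CPM of 1 stands for about 20 to 25 reads. Rbpms, the targeted gene, fell from 159.7 ± 42.8 to 31.8 ± 5.82 CPM (mean ± SD, n = 4 per genotype) with no overlap, as the labels of the libraries say. Among markers of the cells in ventricle, 2 of 12 cardiomyocyte markers fell (Tnni3 and Ryr2) and 0 rose, and their summed level was 52121 to 67876 CPM in controls and 45609 to 54069 in cKO. All 12 fibroblast markers rose, such as Dcn (0.89) and Pdgfra (0.83) on the log2 scale, with summed levels of 2712 to 3640.5 and 5634 to 6549 CPM. Of the other marker lists, 2 of 12 macrophage genes rose (Mrc1, Lyz2), 3 of 6 nerve and glia genes rose (among them S100b and Cdh19), 1 of 5 tested atrial genes rose (Dkk3), 1 of 13 endothelial genes rose (Vwf) and 1 fell (Flt1), and 1 of 10 smooth muscle and pericyte genes rose (Cspg4) and 2 fell (Kcnj8, Abcc9). The part of these marker shifts in the results below was not tested beyond the marker scaling given with each. In bulk tissue fewer cells of a type and less RNA per cell cannot be told apart. With the 12 cardiomyocyte markers as the scale, 3167 genes rose and 376 fell in place of 1548 and 1547. This alternative, chosen after seeing the data, moved the median log2 fold change of all genes from 0.01 to 0.27. It used the summed marker counts, so abundant markers weighed most, such as Myh6 and Ttn (19800 and 10277 CPM in controls). Their log2 fold changes were -0.34 and -0.31, neither called, against a median of -0.20 for the 12 markers, of which 10 lay below 0. With total counts as the scale 66.1% of called genes were higher against 50.0%.

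Rxrg, on chromosome 1 (167598384 to 167639623, plus strand, GRCm38), encodes RXR gamma, the RXR form known for its expression in striated muscle and parts of the brain. The 4 control libraries measured 52.7, 51.7, 50.3 and 53.8 CPM and the 4 cKO libraries 20, 22.6, 20.4 and 22.1. Every cKO library was thus at less than the lowest control, and the spread within each genotype was small. Rxrg was 2.45-fold lower, which is -1.29 ± 0.08 as a log2 fold change (SE; 95% interval -1.46 to -1.13, adjusted p = 1.04e-05 by edgeR). In females the level was 50.3 against 20.4 CPM, and in males the mean was 52.7 against 21.5. With the cardiomyocyte markers as the scale, Rxrg remained called with a log2 fold change of -1.03 (adjusted p = 5.89e-05).

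Rxra and Rxrb, the more widely expressed forms, did not pass. Rxra, on chromosome 2 (27676440 to 27762957), measured 104, 94.5, 93.6 and 124 CPM in controls and 92.3, 103, 80.7 and 85.3 in cKO libraries. The groups overlapped, and the log2 fold change was -0.20 with a 95% interval of -0.44 to 0.03 (adjusted p = 0.224, edgeR). Rxrb, on chromosome 17 (34031812 to 34038399), measured 30.8 to 39.5 CPM in controls and 28.8 to 35.9 in cKO libraries, with a log2 fold change of -0.15 (95% interval -0.36 to 0.06, adjusted p = 0.333). Both estimates were above 0, at 0.06 and 0.12, with the cardiomyocyte markers as the scale.

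RefSeq places the start of Rxrg at 2 sites, and the count table does not tell them apart. The stretches from 250 to 11 bases before each start are shown because Rxrg changed most of the 10 genes, with that of the second start of Rxra beside them, the only other window among the 17 searched that holds the motif found at the second start of Rxrg. Capitals mark AAGGTCA, the core that ERRs and other receptors acting singly can bind, and no other letters are marked. The windows are in GRCm38.p6, plus strand, 5′ to 3′. By GENCODE M21 the first lies before the annotated gene and the others lie in introns of Rxrg and Rxra.
Rxrg first start, chr1:167598112-167598351: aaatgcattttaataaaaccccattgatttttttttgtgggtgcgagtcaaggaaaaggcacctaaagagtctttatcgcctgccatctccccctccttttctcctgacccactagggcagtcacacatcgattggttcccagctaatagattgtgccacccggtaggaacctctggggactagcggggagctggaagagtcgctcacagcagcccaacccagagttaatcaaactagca
Rxrg second start, chr1:167618015-167618254: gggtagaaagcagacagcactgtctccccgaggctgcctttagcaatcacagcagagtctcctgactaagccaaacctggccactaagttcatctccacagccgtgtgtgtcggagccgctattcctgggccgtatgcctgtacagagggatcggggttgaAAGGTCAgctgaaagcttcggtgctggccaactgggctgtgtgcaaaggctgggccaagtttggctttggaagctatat
Rxra second start, chr2:27709042-27709281: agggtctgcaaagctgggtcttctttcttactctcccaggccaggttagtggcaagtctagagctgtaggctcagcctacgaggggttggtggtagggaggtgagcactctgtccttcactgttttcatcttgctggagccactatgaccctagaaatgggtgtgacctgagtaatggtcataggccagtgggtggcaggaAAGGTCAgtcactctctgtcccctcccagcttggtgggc
The motif begins 89 bases before the second start of Rxrg and 49 bases before the second start of Rxra. Windows from 250 bases before to 50 bases after a start were searched on both strands for 17 starts of 9 of the 10 genes, all but Ppargc1b. AAGGTCA was in 2 of the 17 and in 4.72% of all 32851 windows of the same length. The shorter AGGTCA, which lies inside AAGGTCA, was in 4 of 17, from Pparg, Rxra and Rxrg, and in 16.3% of all windows. AGGTCA repeated in the same direction with 1 base of any kind between, the element PPAR and RXR pairs favour, was in 0 of 17 and in 0.0396% of all. A match is a description of letters and not a binding site.

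Ppara, on chromosome 15 (85734983 to 85802819, plus strand), encodes PPAR alpha. Control libraries measured 73.6, 63.2, 80.9 and 69.5 CPM, and cKO libraries 48.1, 40.9, 47.6 and 44.7. All cKO libraries lay below all controls, and the highest control value was that of the female. Ppara was 36.9% lower, a log2 fold change of -0.66 ± 0.09 (SE; 95% interval -0.86 to -0.47, adjusted p = 0.000509, edgeR). It was -0.39 with the cardiomyocyte markers as the scale (adjusted p = 0.0455).

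The other PPAR genes did not pass. Ppard, on chromosome 17 (28232700 to 28301474), encodes the form found in most tissues, and measured 34.1, 29.3, 26.9 and 32.8 CPM in controls and 31.4, 31.6, 30.0 and 29.4 in cKO libraries. The cKO values lay within the control range, and the log2 fold change was -0.01 (95% interval -0.20 to 0.19, adjusted p = 0.964, edgeR), with a sign that changed with the scaling. Pparg, on chromosome 6 (115360951 to 115490399), is the regulator of fat cell formation and had the lowest CPM of the 10 genes. It measured 9.29 to 10.4 CPM in controls and 9.81 to 12.2 in cKO libraries, with overlap, a log2 fold change of 0.13 and a 95% interval of -0.11 to 0.38 (adjusted p = 0.468). Of 13 adipocyte markers 9 could be tested (not Lep, Retn, Ucp1 and Adrb3), with a median log2 fold change of 1.25, and 1 rose (Cidea) and 1 fell (Lipe, also a lipase of heart muscle). Adipoq, a defining fat cell marker named after its values were seen, measured 0.938 ± 1.0 CPM in controls and 2.32 ± 2.03 in cKO and did not pass (adjusted p = 0.226, edgeR). With no filter on low counts 7 adipocyte markers rose over all 8 libraries. In males alone 7 rose, 3 without control replicate 3, 2 without cKO replicate 3 and 0 without control replicate 1.

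**Figure D2:**
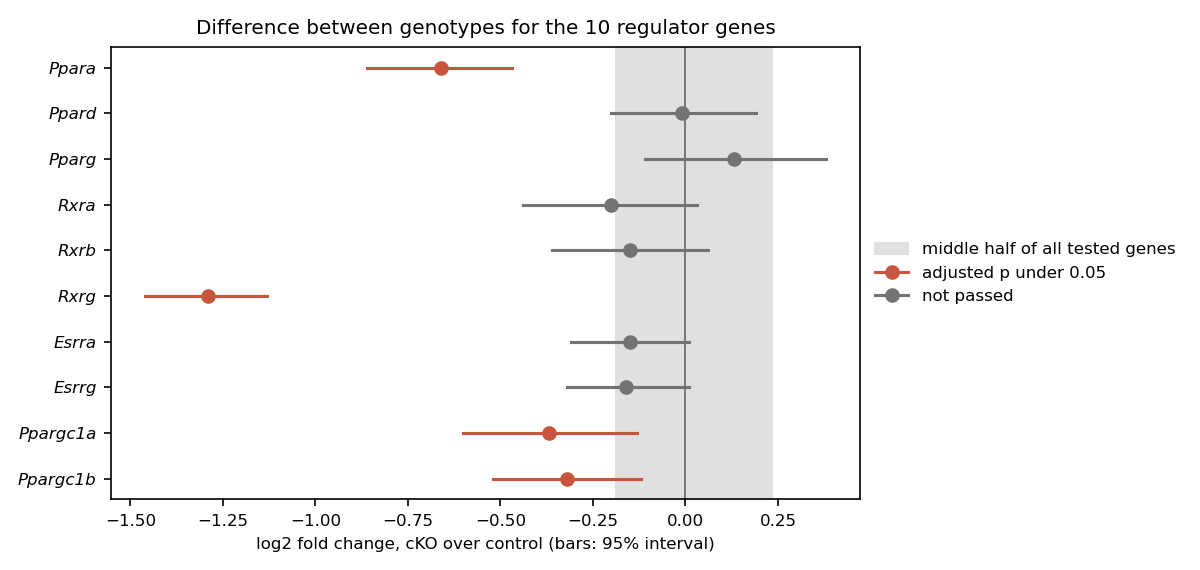
Log2 fold change of cKO over control for each gene (points) with its 95% interval (lines), red where the adjusted p was under 0.05, and the interquartile range of all tested genes in grey. Rxrg at -1.29 and Ppara at -0.66 lie farthest from 0, and the intervals of the 6 genes in grey include 0.

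Esrra and Esrrg were close to each other in level and in their difference, and neither passed. Esrra, on chromosome 19 (6910977 to 6921813, minus strand), measured 80.4, 71.7, 82.8 and 79.3 CPM in controls and 67.8, 72.3, 68.8 and 73.8 in cKO libraries. Control replicate 2 lay within the cKO range, and the log2 fold change was -0.15 (95% interval -0.31 to 0.01, adjusted p = 0.177, edgeR). Esrra shares 73 exon bases with Trmt112 on the other strand and 91 with Mir6990, so reads there are uncertain. Esrrg, on chromosome 1 (187608791 to 188214885), measured 109, 107, 116 and 115 CPM in controls and 96.2, 99.4, 110.5 and 93.8 in cKO libraries. The female cKO library was the one inside the control range, and the log2 fold change was -0.16 (95% interval -0.32 to 0.01, adjusted p = 0.177). Both estimates turned to 0.11 with the cardiomyocyte markers as the scale. Esrrb, the third ERR gene, had a log2 fold change of -0.18 (adjusted p = 0.332), and passed without cKO replicate 3 (-0.31, adjusted p = 0.0458).

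Both PGC-1 genes fell by smaller amounts than Rxrg and Ppara. Ppargc1a, on chromosome 5 (51454250 to 51567726, minus strand), measured 189, 202, 243 and 189 CPM in controls and 179, 167, 157 and 136 in cKO libraries. The groups were separate but close, and the female control was the highest. Ppargc1a was 22.4% lower, a log2 fold change of -0.37 ± 0.11 (SE; 95% interval -0.60 to -0.13, adjusted p = 0.0325, edgeR). Ppargc1b, on chromosome 18 (61298136 to 61400431), measured 37.6, 37.0, 36.3 and 33.5 CPM in controls and 31.6, 30.4, 24.5 and 29.2 in cKO libraries. The lowest value was that of the female cKO library, and no cKO library reached the lowest control. Ppargc1b was 19.9% lower, at -0.32 ± 0.09 (SE; 95% interval -0.52 to -0.12, adjusted p = 0.0303). Pprc1, the third gene of this coactivator family, did not pass (log2 fold change 0.07, adjusted p = 0.743).

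The 2 PGC-1 calls depended on single libraries and on the scaling. Ppargc1a missed the threshold without control replicate 2 (adjusted p = 0.0584) or 3 (0.0695) and without cKO replicate 2 (0.0547), 3 (0.0695) or 4 (0.0859) by edgeR. Ppargc1b missed it without control replicate 1 (0.0656), 2 (0.0656) or 3 (0.0504) and without cKO replicate 3 (0.0773) or 4 (0.0605). In males alone the log2 fold changes were -0.26 for Ppargc1a (adjusted p = 0.127) and -0.24 for Ppargc1b (0.109), and the male libraries of the genotypes did not overlap for either gene. In the females the log2 ratios were -0.63 and -0.57, from 1 library per genotype. A test of sex by genotype, added after seeing the data and resting on a spread assumed alike for the lone females, gave an adjusted p of 0.938 for each gene (edgeR). With total counts as the scale neither passed (-0.28 and -0.24, adjusted p = 0.103 and 0.136), and with the cardiomyocyte markers the values were -0.11 and -0.07 (adjusted p = 0.56 and 0.72). Rxrg and Ppara passed under all 19 other settings fixed for them at this threshold (listed with the processing), with log2 fold changes of -1.32 to -1.21 and -0.73 to -0.58.

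**Figure D3:**
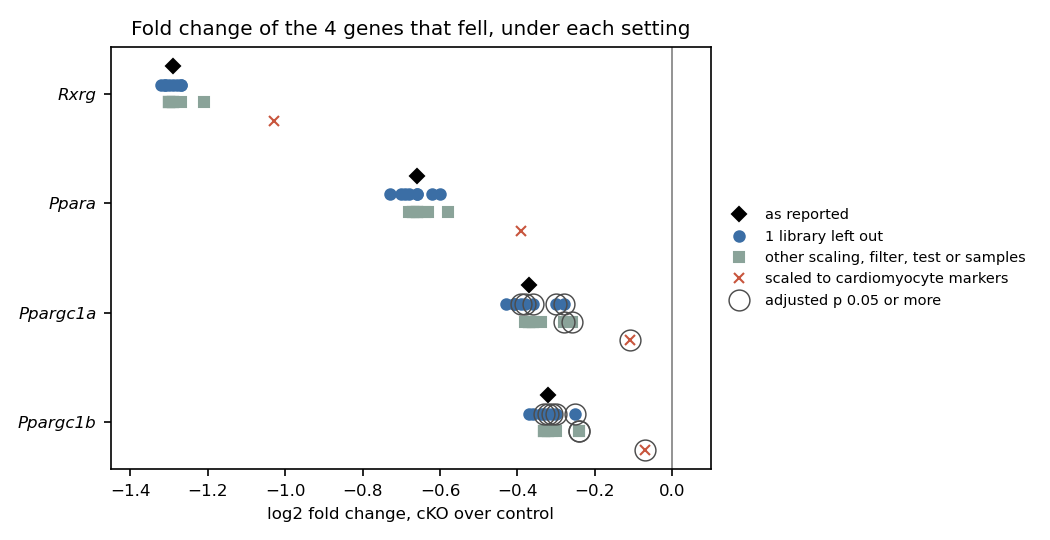
Log2 fold change (x axis) of Rxrg, Ppara, Ppargc1a and Ppargc1b as reported (diamonds), with each library left out (circles), under other scalings, filters, tests or samples (squares) and scaled to cardiomyocyte markers (crosses); rings mark an adjusted p of 0.05 or more. Rings are on Ppargc1a and Ppargc1b and on neither Rxrg nor Ppara.

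As CPM per kilobase of exon (RPKM), Ppargc1a was the most abundant of the 10 genes in controls, at 31.2 ± 3.90 RPKM (SD, n = 4), and its lowest control library was above the highest of the next gene. Rxrg followed at 22.7 ± 0.65, Rxra at 19.0 ± 2.60, Ppara at 18.7 ± 1.94, Esrrg at 18.0 ± 0.733 and Esrra at 17.9 ± 1.09, and in this run each gene's libraries overlapped those of the next. Ppargc1b at 9.05 and Rxrb at 8.99 RPKM overlapped, and Ppard at 4.10 and Pparg at 3.3 were lowest and separate. In cKO ventricles Rxrg was at 9.25 ± 0.559 RPKM, after Ppara at 11.8 ± 0.863, and thus moved from second to sixth in the order, where its libraries overlapped those of Rxrb at 8.10 ± 0.729.

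These differences changed the make-up of the RXR and PPAR families but not that of the ERR and PGC-1 families beyond their spread. The shares are of the summed RPKM of the genes of a family and are given as a description, without a test. Rxrg made up 44.9 ± 2.26% of RXR in controls (41.7% to 46.8%) and 27.3 ± 0.844% in cKO libraries (26.5% to 28.1%). The share of Rxra was 37.4 ± 2.16% and 48.7 ± 3.06%. By these exon lengths the leading RXR gene was Rxrg in every control and Rxra in every cKO library. In control replicate 4 the 2 were close, at 41.7% for Rxrg and 40.5% for Rxra. The summed RXR level was 50.7 ± 4.04 RPKM in controls and 33.9 ± 2.20 in cKO. Ppara made up 71.5 ± 2.81% of PPAR in controls and 60.5 ± 3.04% in cKO libraries, with no overlap, and remained the leading PPAR gene in all 8. Esrra held 49.9 ± 1.06% and 50.0 ± 2.43% of the summed Esrra and Esrrg level. Ppargc1a held 77.4 ± 2.07% and 76.9 ± 2.31% of the summed Ppargc1a and Ppargc1b level.

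**Figure D4:**
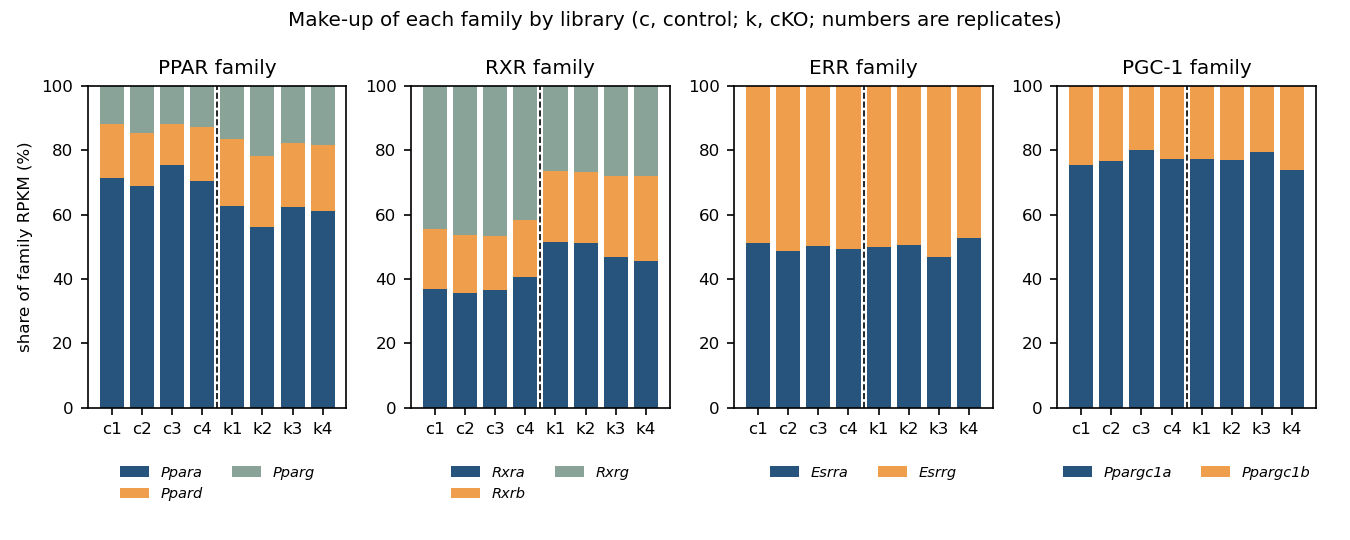
Share of each gene in the summed RPKM of its family (y axis, 0 to 100%) for every library, controls left of the dashed line and cKO right of it. Rxrg is at 41.7% to 46.8% in controls and 26.5% to 28.1% in cKO libraries, while the ERR and PGC-1 panels overlap between genotypes.

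Known target genes of PPARs fell in large part. Of 50 listed genes 47 could be tested, and 28 fell and 2 rose, 59.6% and 4.26%, against 9.64% of all tested genes in each direction. The median log2 fold change was -0.50 against 0.01 for all tested genes. The list was chosen with earlier results of these data known. Ehhadh, a peroxisomal enzyme of fatty acid oxidation, fell from 23.1 ± 1.36 to 11.7 ± 0.523 CPM, a difference of -0.98 ± 0.09 (log2, SE; adjusted p = 4.63e-05, edgeR). Slc22a5, the carnitine transporter, fell from 40.8 ± 3.02 to 21.9 ± 2.35 CPM (-0.90), and Acsl1, which activates long-chain fatty acids, from 1440.2 ± 32.5 to 880.0 ± 69.0 CPM (-0.71). The carnitine palmitoyltransferase genes Cpt1a and Cpt2 and the acyl-CoA dehydrogenase genes Acadm, Acadvl and Acads also fell. So did the lipid droplet genes Plin4 and Plin5 and the uncoupling gene Ucp3, all of these named here after their values were seen. The control and cKO libraries of Ucp3 overlapped. Acot1, also named after its values were seen, had the largest fall of this list, 4.26-fold from 9.88 ± 3.97 CPM, and has a near-identical neighbour in Acot2, so its reads are uncertain. The genes that rose were Ucp2, an uncoupling protein relative also found in immune cells, from 137 ± 19.0 to 411 ± 42.6 CPM (1.59), and Cidea, a lipid droplet protein (0.60, adjusted p = 0.0162). Cidea missed the threshold without control replicate 1 (adjusted p = 0.0503).

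Several widely used PPAR alpha targets were among the 17 that did not pass, and these too were named after their values were seen. Pdk4, a brake on glucose oxidation, had a log2 fold change of -0.49 (adjusted p = 0.249, edgeR), Angptl4 -0.17 (0.807) and the fatty acid transporter Cd36 -0.09 (0.544). Cyp4a10, Cyp4a14 and Fgf21 were too low to test. With the cardiomyocyte markers as the scale 13 PPAR targets fell and 2 rose.

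Of 48 target genes of ERRs and PGC-1, all tested, 28 fell (58.3%) and 0 rose, against 9.64% of all tested genes in each direction. Their median log2 fold change was -0.40, and this list too was chosen with earlier results of these data known. The lists share Acadm and Pdk4, and together 55 of 93 tested genes fell and 2 rose. Got1, an enzyme of the malate-aspartate shuttle, fell from 760.5 ± 109 to 387 ± 19.8 CPM, or -0.97 ± 0.10 (log2, SE; adjusted p = 0.000107, edgeR). Ckm, muscle creatine kinase, fell from 928 ± 141 to 527 ± 38.0 CPM (-0.81), and Idh3a, of the citric acid cycle, from 779 ± 51.9 to 497 ± 49.9 CPM (-0.65). Acadm, the medium-chain acyl-CoA dehydrogenase, fell from 1051 ± 121 to 649 ± 61.2 CPM (-0.70). Of the listed factors that transcribe mitochondrial DNA or act on their genes, also named after their values were seen, Polrmt, the mitochondrial RNA polymerase, fell from 29.1 ± 4.87 to 21.8 ± 1.38 CPM (-0.42, adjusted p = 0.0281, edgeR). The log2 fold changes of -0.20 for Tfam, -0.20 for Nrf1, -0.04 for Gabpa, -0.15 for Tfb2m and 0.05 for Tfb1m did not pass. With the cardiomyocyte markers as the scale 8 genes of this list fell and 1 rose. Whether the regulators' falls and those of their listed targets are linked was not tested, and both come from the same 8 libraries.

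**Figure D5:**
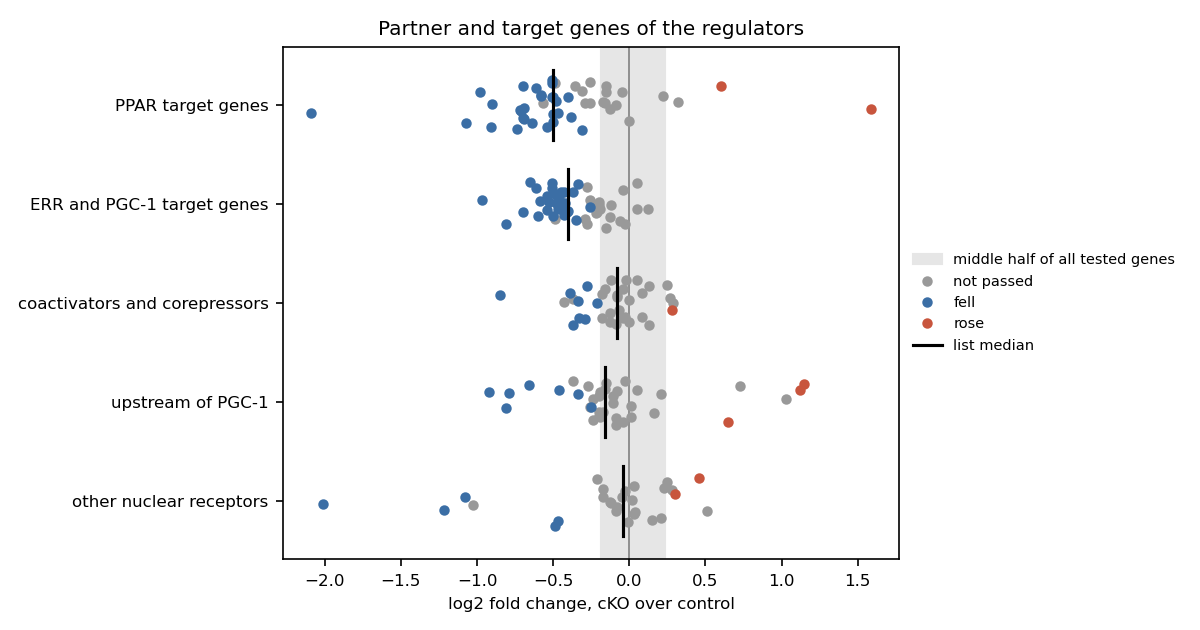
Log2 fold change (x axis) of every tested gene in 5 lists (rows), blue where it fell, red where it rose and grey where it did not pass; black lines are list medians and the grey band is the interquartile range of all tested genes. The medians of the target lists are -0.50 and -0.40, and those of the other lists lie between -0.16 and -0.04.

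Among the proteins that work with these receptors, 8 of 35 coactivator and corepressor genes fell (22.9%) and 1 rose (2.86%). Their median log2 fold change was -0.08, and of all tested genes 9.64% fell and 9.64% rose. Lpin1, a phosphatidate phosphatase that also coactivates PPAR alpha, fell from 269 ± 27.6 to 205 ± 15.5 CPM (-0.39, adjusted p = 0.0103, edgeR). The p160 coactivator genes Ncoa1 and Ncoa3 fell with -0.33 and -0.29. The corepressor Lcor fell with -0.85 from a low 4.84 ± 1.08 CPM, and its control and cKO libraries overlapped. These calls were fragile, and 4 fell without control replicate 1, 5 without cKO replicate 1 or 3, 4 without cKO replicate 4, 4 in males alone, 2 with total counts as the scale and 0 with the cardiomyocyte markers. The gene that rose, Rb1, missed the threshold without control replicate 3 or cKO replicate 1, 2 or 3.

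Of 37 genes known to act on PGC-1, 7 fell (18.9%) and 3 rose (8.11%), with a median of -0.16. Of all tested genes 9.64% fell and 9.64% rose, so the share that rose was near that of all genes. Prkaa2, the catalytic subunit of AMP-activated kinase most abundant in muscle, fell from 393 ± 20.6 to 208 ± 28.3 CPM, or -0.92 ± 0.10 (log2, SE; adjusted p = 0.000149, edgeR). Its regulatory beta subunits moved in opposite directions, Prkab1 from 47.4 ± 5.22 to 27.0 ± 2.19 CPM (-0.81) and Prkab2 from 95.4 ± 8.02 to 149.8 ± 11.5 CPM (0.65). Twist1 and Myc, both low, also rose, from 1.07 to 2.39 and from 3.06 to 6.65 CPM. Akt1, a kinase of insulin signalling, fell from 229.9 ± 12.1 to 146 ± 8.95 CPM (-0.66). With the cardiomyocyte markers as the scale 4 of these genes fell and 7 rose.

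The genes whose log2 CPM over the 8 libraries was most like that of Rxrg, among the 9173 tested genes that averaged 10 CPM or more, were Mgat4b (Pearson r = 0.995), Antxr2 (0.994) and Ehhadh (0.993). The points are the same 8 libraries in 2 genotypes, so such an r can reflect the difference between genotypes as well as the spread within each. These parts were not separated, and r is given as a description. For Ppara the most alike genes were Rufy1 (0.988), Acot7 (0.986) and Slc8a1 (0.986). For Esrra, which did not pass, they were Wdr41 (0.963), Qdpr (0.957) and Arrdc2 (0.957). For Ppargc1b they were Mhrt (0.961), Epb41l3 (0.961) and Lrtm1 (0.960). Mhrt lies antisense to a myosin gene, and its reads are uncertain without a stated strand setting.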

How the data were processed

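The authors deposited whole-number read counts per gene symbol, 1 column for each of 8 libraries of 8-week ventricle, in 54132 rows. Per the labels' protocols the libraries were stranded and made from mRNA. Per the submitters' processing notes, reads were checked with FastQC (0.11.4); the notes also list HISAT2 (version 2.0.4), featureCounts (version 1.6.0), edgeR (version 3.30.3), GRCm38 and mm10. Which annotation was counted, on which strand and how multiply aligned reads were treated is not stated there. Columns were matched to samples by title. The 24 rows without a gene symbol, 0.115% to 0.132% of counts, were left out.

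From these counts edgeR 4.0.16 (R 4.3.3) gave the quasi-likelihood test of genotype, with TMM scaling, filterByExpr defaults and Benjamini-Hochberg adjustment over 16051 genes, two-sided, threshold 0.05. Standard errors were taken as the size of the log2 fold change over the root of the F statistic. RPKM used exon lengths of GENCODE M21 (GRCm38), and promoters are from RefSeq. The script was also run on simulated counts of 15799 genes, where 67, 67 and 66 genes were set to differ by 1.5-, 2- and 4-fold. It found 43.3% of the 1.5-fold set and 82.1% of the 2-fold set, and 5 of its calls (3.2%) were wrong. In the real counts 3095 of 16051 genes were called, many more than were changed in the simulation. These rates therefore describe the simulation only, and recovery in the real comparison was not measured. Libraries of 1 genotype differed by a chi-square per degree of freedom of 7.09 to 31.2, so none was a duplicate. The labels do not say whether each library is 1 animal, and p-values measure the spread between libraries.

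Members and the 14 gene lists (282 genes, all with a row) were chosen with earlier results of these data known. The naming rule took the members, Rbpms, up to 4 tested genes of each list with the smallest adjusted p, the 2 most abundant genes of each marker list, and the 3 genes of mean CPM at least 10 most correlated with the lowest-p member of each family. Markers named in full lists of calls, and genes said to be so, were named after their values were seen. Some genes counted in the lists are not reported here by name. Other settings tried were scaling by the size factors of DESeq2 (1.42.0), by upper quartiles or by total counts, no and a stricter filter, DESeq2, limma-voom (limma 3.58.1), robust dispersions, sex as a covariate, males only, no mitochondrially encoded genes, an adjusted p under 0.01, each library left out, and, added later, cardiomyocyte markers as the scale.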

Additional observations from a re-analysis of the deposited data

How the results depend on the processing

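Settings are those listed with the processing, all but the cardiomyocyte marker scale planned. Ppard, which was not called, had log2 fold changes of 0.01 with upper-quartile factors, 0.08 with total counts, 0.26 with the cardiomyocyte markers and -0.07 to 0.04 with 1 library left out. That marker scale also turned Rxra (0.06), Rxrb (0.12), Esrra (0.11), Esrrg (0.11) and Esrrb (0.09) above 0, none of them called. Ppargc1a and Ppargc1b missed the threshold with total counts (-0.28 and -0.24), in males only (-0.26 and -0.24), with the marker scale (-0.11 and -0.07) and at an adjusted p under 0.01 (-0.37 and -0.32). With 1 library left out Ppargc1a ran from -0.43 to -0.28 and Ppargc1b from -0.37 to -0.25, and each passed in 3 of 8. Among all genes 1021 fell with total counts, 808 rose and 817 fell at 0.01, and 3167 rose and 376 fell on the marker scale. Of PPAR targets 1 rose at 0.01 and 1 to 2 with a library left out, and 13 fell on the marker scale. Of ERR and PGC-1 targets 1 rose and 8 fell on it, and of genes acting on PGC-1 7 rose and 4 fell. Of coactivators and corepressors 2 rose with upper-quartile factors, total counts, the stricter filter, DESeq2, limma-voom or sex as a covariate, 3 with the marker scale, and 0 with no filter, in males or at 0.01, with 0 to 1 when a library was left out. The number that fell was 2 with total counts, 4 in males, 0 at 0.01, 0 on the marker scale and 4 to 7 with a library left out. Of other nuclear receptors 1 rose with no filter or limma-voom, 0 in males or at 0.01, 4 on the marker scale and 0 to 2 with a library left out, and 2 fell on the marker scale. Of Esrrb and Pprc1, 0 to 1 fell with a library left out. Pprc1 was at -0.01 in males, Pck1, an adipocyte marker, at -0.06 with limma-voom, and Fabp4 at -0.09 to 0.08 with a library left out, none called. The cause of these changes was not tested. The differences in family share between genotypes moved by less than 1 SD with longest transcript lengths in place of exon lengths and with 1 library left out. The shares themselves, and the order of genes within a family, were not compared between these lengths. Precision is low for genes of few counts such as Vdr and Lcor, named with their levels. It was lower still for the adipocyte markers Pck1 and Adipoq (SE 0.92 and 0.67 on the log2 scale). No paired analysis was possible because the labels give no numbers shared by libraries of the 2 genotypes.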

Other observations

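Of 31 other nuclear receptor genes 28 could be tested, and 5 fell and 2 rose, with a median log2 fold change of -0.04 (9.64% of all tested genes fell and 9.64% rose). Vdr, the vitamin D receptor and an RXR partner, fell from a low 1.6 ± 0.164 to 0.394 ± 0.187 CPM (mean ± SD, n = 4 per genotype; log2 fold change -2.01 ± 0.35 SE, adjusted p = 0.00225, edgeR). Thrb, a thyroid hormone receptor and also an RXR partner, fell from 51.7 ± 7.16 to 37.3 ± 3.56 CPM (-0.47, adjusted p = 0.00995). The RXR partners Rara, Rarb, Rarg, Thra, Nr1h2, Nr1h3 and Nr1h4, named after their values were seen, missed the threshold. Their log2 fold changes were -0.01, 0.03, 0.03, -0.17, -0.13, 0.21 and 0.28, in that order. These genes with Vdr and Thrb are not all of the RXR partners on the list. Nr4a1, an orphan receptor induced by stimuli such as adrenergic signals, fell from 44.1 ± 14.6 to 18.9 ± 4.46 CPM (-1.22), and Nr3c2, the mineralocorticoid receptor, from 65.8 ± 7.35 to 46.9 ± 5.41 CPM (-0.49). Nr4a3 also fell (-1.08, adjusted p = 0.0462), and Nr2f2 rose (0.30), both named after their values were seen. The control and cKO libraries overlapped for Nr4a1 and for Nr4a3. Leaving out control replicate 2 or 4, or replicate 1 of the cKO, left 0 that rose; leaving out control replicate 3, or replicate 2, 3 or 4 of the cKO, left 1. With the cardiomyocyte markers as the scale 2 fell and 4 rose, and Thrb and Nr3c2 did not pass (adjusted p = 0.275 and 0.225).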
